A study of Mus musculus with 12 samples.

Results

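Late-annotated entries of the mouse miRNA catalogue were followed in microglial exosomes after repetitive mild traumatic brain injury (rmTBI): mmu-miR-762, mmu-miR-2137, mmu-miR-2861, mmu-miR-3960, mmu-miR-5100, mmu-miR-5126, mmu-miR-6238, mmu-miR-6239, and mmu-miR-6240, written below without the species prefix. They were chosen by name, and all 9 of the 9 listed names were found among the 1881 mouse miRNAs on the arrays. Exosomes are small vesicles that cells release with RNA inside. Those measured here came from the cerebral cortex and hippocampus of male C57BL/6 mice and were enriched for microglial origin by pull-down on CD11b, a surface protein of microglia and other myeloid cells. The injured mice received 4 closed-head impacts at intervals of 48 h and were sampled at 3, 14, or 42 days post-injury (DPI), and the sham mice received no impact. Each of the 4 groups had 3 single-color arrays, 12 in all, and the time at which the sham mice were sampled is not given in the labels. Nothing in the labels says whether an array held the exosomes of 1 mouse or of several, so the p values below measure only the spread between these samples. The comparisons ask whether the level of each miRNA differed from sham at the acute, sub-acute, and chronic time points.

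A miRNA is a short RNA that binds mRNAs through its seed, the bases near its 5′ end, and lowers their translation or stability. Most abundant miRNAs of brain, such as the let-7 family, were found early. The entries followed here were added later, mainly from deep sequencing of small RNA, and several such entries have been questioned because they resemble fragments of other abundant RNAs or are unusually rich in G and C. miR-2861 and miR-3960 are the best studied of them, as a pair that promotes the formation of bone cells. For the other entries no function is stated here.

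The mature sequences are shown because the question of what these entries are turns on their letters. RefSeq (GRCm38.p6) gave a mature sequence for 8 of the 9 entries, printed 5′ to 3′ with the seed, bases 2 to 8, in capitals, followed by the position of the mature RNA.
miR-762: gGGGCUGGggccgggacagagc, chr7:127708534-127708555, plus strand
miR-2137: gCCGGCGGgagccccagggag, chrX:72992113-72992133, plus strand
miR-2861: gGGGCCUGgcggcgggcgg, chr2:32712819-32712837, minus strand
miR-5100: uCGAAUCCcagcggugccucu, chr11:60728698-60728718, plus strand
miR-5126: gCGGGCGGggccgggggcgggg, chr1:84695890-84695911, plus strand
miR-6238: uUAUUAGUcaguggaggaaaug, chr7:53891796-53891817, minus strand
miR-6239: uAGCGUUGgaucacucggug, chr14:117953768-117953787, minus strand
miR-6240: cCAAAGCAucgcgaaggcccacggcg, chr5:114851973-114851998, plus strand
The miR-3960 hairpin lies at chr2:32712900-32712972 on the minus strand, 11 bases from the miR-2861 hairpin on the same strand. Within the bounds of protein-coding genes lie miR-762 (Bcl7c), miR-2137 (Zfp185), miR-5100 (Mief2), miR-5126 (Dner), and miR-6239 (Gpc6). The table of genes used gives neither strand nor exons, so whether these positions are exonic or intronic was not determined. No gene other than a miRNA gene overlapped the other 4 entries.

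The label "GC-rich" held for part of the set. The median G+C share over the 1608 miRNAs of the arrays with a mature sequence was 52.2%, with quartiles at 45.3% and 60.9%. miR-5126 had no base other than G or C (100%), followed by miR-2861 (94.7%), miR-2137 (85.7%), miR-762 (81.8%), miR-6240 (69.2%), and miR-5100 (61.9%), all above the upper quartile. miR-6239 (55.0%) lay between the quartiles. miR-6238 (36.4%) lay below the lower quartile, and 5.91% of the other miRNAs had a lower share. The letters GCGGG occur in miR-2137, miR-2861, and miR-5126, as read on the RNA strand, and in 1.68% of all 1608 sequences. No 2 of the 8 seeds were the same. The seed of miR-762 was shared with miR-6940-5p and miR-7648-3p, that of miR-2861 with miR-3091-3p, that of miR-6239 with miR-6351, and that of miR-6240 with miR-330-3p. No rRNA sequence was at hand, so the likeness of miR-6239 and miR-6240 to rRNA was not tested.

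The arrays were brighter at later times after injury. The 75th percentile of signal over the 230 miRNAs detected on every array ranged from 217 to 348 intensity units in sham. It ranged from 401 to 619 at 3 DPI, lay between 588 and 1173 at 14 DPI, and lay between 1385 and 2936 at 42 DPI. The number of miRNAs detected per array was 243 to 285 in sham and 490 to 579 at 42 DPI. Of the 4 spike-in controls used, dmr_285 ranged from 763 to 1155 over the 12 arrays and dmr_31a from 628 to 839, while dmr_3 ranged from 839.5 to 2445 and dmr_6 from 129 to 565. The control dmr_6 was 129 to 209.9 in sham and 413 to 482 at 42 DPI. For dmr_285 the break fell between slides: it was 763 to 788 in sham and 848 on 3 DPI replicate 1, which share a slide. On the other 8 arrays it was 1108 to 1155. Each result is therefore given on 2 scales: unscaled, which is the summed intensity as scanned, and scaled, which is the same signal divided by the 75th percentile of its array. The sham arrays and 3 DPI replicate 1 lay on 1 slide and the other 8 arrays on another, so slide and group cannot be told apart at 14 and 42 DPI except through the 3 DPI arrays. Of 6 miRNAs known from myeloid cells, 1 (miR-21a-5p) was detected on all 3 sham arrays, 4 on none of them, and 4 on all 3 at 42 DPI. Their summed intensity was 192 to 325 in sham and 1944 to 4405 at 42 DPI. Most of it was miR-21a-5p, with 152 to 280.5 in sham and 1679 to 3923 at 42 DPI. miR-142a-3p, a marker of blood-derived and microglial cells, was not above background on the sham and 3 DPI arrays. The 4 neuronal miRNAs of the marker list summed to 1897 to 3488 in sham and 20906 to 55070 at 42 DPI. Most of that sum was miR-128-3p, with 1234 to 2386 in sham and 14825 to 41800 at 42 DPI. Another of the 4, miR-124-3p, did not follow the sum. It was detected on no sham array and no 42 DPI array, but on all 3 arrays at 14 DPI. The part of these shifts in the results below was not tested, and more exosomes and more of an RNA per exosome cannot be told apart in either scale.

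Signal of the 9 entries spanned from none to among the brightest of the array. Detected on all 12 arrays were 5 of them (miR-2137, miR-2861, miR-3960, miR-5100, and miR-5126), where detection means that more than 50% of the spots of a probe stood well above background. miR-6238 was detected on 10 arrays and miR-6240 on 2, whereas miR-762 and miR-6239 were detected on 0 of 12. As 486 miRNAs were detected throughout at least 1 group and could be tested, 6 of the 9 entries entered the tests. Together the 9 entries held 1.33% to 4.15% of the signal of an array.

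**Figure D1:**
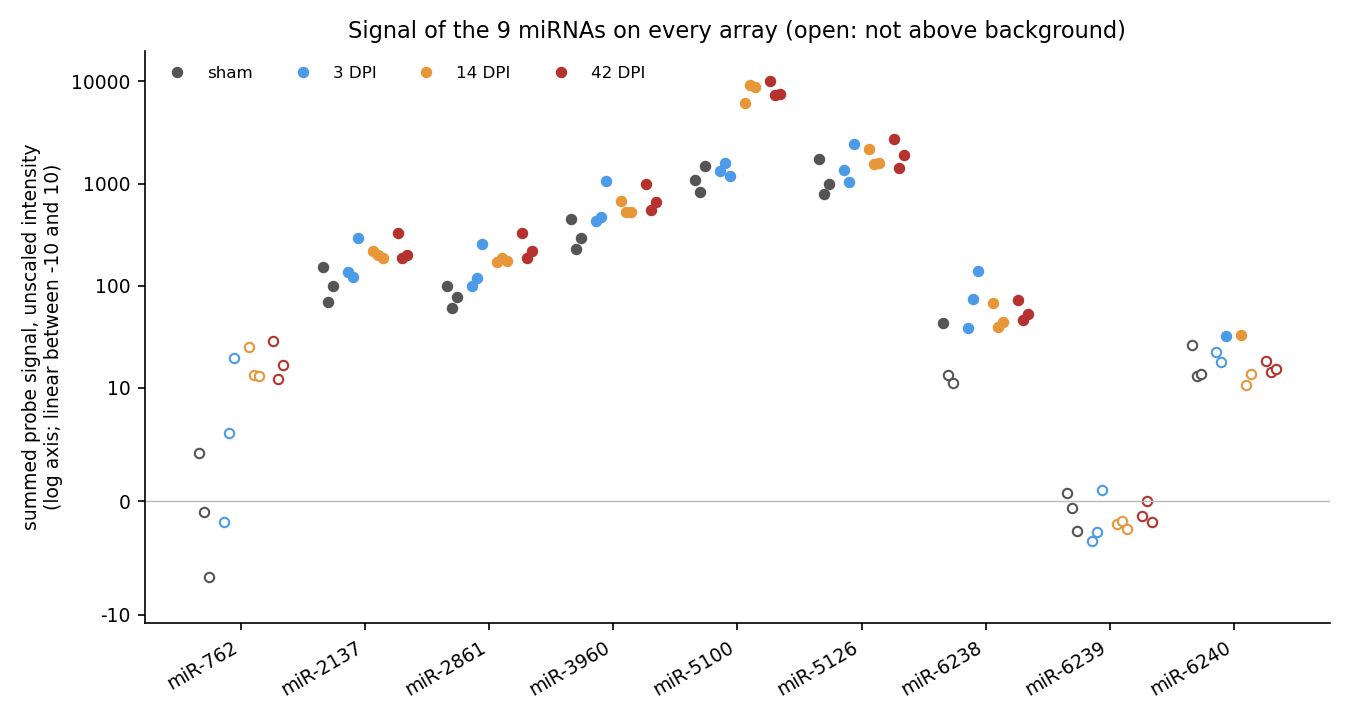
Unscaled signal (intensity units, log axis that turns linear near 0) of the 9 miRNAs on each of the 12 arrays, 3 per group. Each point is 1 array, and open points are not above background. miR-5100 separates into a lower set (sham and 3 DPI, 832 to 1585) and a higher set (14 and 42 DPI, 6188 to 10155), while in the other 4 entries detected on every array the 3 and 14 DPI groups overlap.

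On the unscaled signal miR-5100 had the largest difference from sham of the 6 entries that could be tested at 14 and 42 DPI, and the smallest at 3 DPI. Its unscaled intensity was 1074, 832, and 1484 on sham replicates 1 to 3, and 1326, 1585, and 1179 at 3 DPI. It was 6188, 9251, and 8772 at 14 DPI, and 10155, 7303, and 7496 at 42 DPI. Sham and 3 DPI overlapped, as did 14 and 42 DPI, and every array of the later pair lay above every array of the earlier pair. The unscaled difference from sham was 2.85 ± 0.35 (log2, SE) at 14 DPI, which is 7.23-fold, with an adjusted p of 4.9e-05 (limma, Benjamini-Hochberg over the 486 miRNAs tested). At 42 DPI it was 2.90 ± 0.35, or 7.48-fold, with an adjusted p of 1.1e-05. At 3 DPI it was 0.30 ± 0.35, with a 95% interval of -0.45 to 1.05 and an adjusted p of 0.530.

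On the scaled signal miR-5100 passed the test against sham at 14 DPI and not at 3 or 42 DPI. Its log2 scaled level was 1.91, 1.94, and 2.09 in sham, 1.72, 1.36, and 1.39 at 3 DPI, 3.40, 2.98, and 2.97 at 14 DPI, and 1.79, 2.40, and 2.01 at 42 DPI. The 14 DPI arrays lay above all others. The difference from sham was 1.13 ± 0.18 at 14 DPI, or 2.20-fold, with an adjusted p of 0.0393. It was 0.09 ± 0.18 at 42 DPI, with an interval of -0.33 to 0.50 and an adjusted p of 1.00. At 3 DPI it was -0.49 ± 0.18 with groups that did not overlap, an unadjusted p of 0.0241, and an adjusted p of 1.00. The step from 14 to 42 DPI, tested directly, was -1.05 ± 0.18 with an unadjusted p of 3.2e-04 and an adjusted p of 0.157. No label pairs the arrays of different groups. Same-numbered sham and 14 DPI arrays did deviate alike from their group means in these data (r = 0.84, 0.44, and 0.78). A fit that blocked on replicate number was therefore also made, and in it the 14 DPI difference no longer passed (adjusted p = 0.113). With the slide as a block the value was 1.49 with an adjusted p of 0.800, and within slide 2 the 14 DPI arrays stood 1.75 above the 3 DPI arrays. Over the 14 alternatives that kept all the arrays, the adjusted p at 14 DPI ran from 3.6e-04 to 0.800. At 42 DPI the difference of miR-5100 from sham ran from 0.04 to 2.30 over the same alternatives. It was called higher in 2 of them, with scaling to the spike-in controls and with the 75th percentile taken over all miRNAs. The return to the sham level at 42 DPI thus depended on the scaling.

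The call at 14 DPI was made on 1 of the 6 tested entries, against a background of 0.823% of the 486 tested miRNAs called higher in that comparison. It was lost when any of 8 arrays was left out (the 3 sham arrays, 3 DPI replicate 1, 14 DPI replicates 2 and 3, and 42 DPI replicates 1 and 3), while the difference itself stayed between 0.99 and 1.21. Unscaled, 3 of the 6 entries were called higher at 14 DPI, miR-2137, miR-2861, and miR-5100, against a background of 66.0%. The count was 1 without sham replicate 2, 2 without any of 6 other arrays, and 5 without sham replicate 1 or 3 DPI replicate 3. With the replicate number as a block over all 12 arrays 2 of the 6 were called, since miR-2137 no longer passed, and with that block fitted to the sham and 14 DPI arrays only, 5 of the 6 were called, with miR-3960 and miR-6238 added. With the slide as a block none was called, with miR-5100 at 2.81 (adjusted p = 0.0774).

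The neighbors miR-2861 and miR-3960 followed each other from array to array. The unscaled intensity of miR-2861 was 98.7, 60.8, and 77.3 in sham, 99.3, 118, and 259 at 3 DPI, 171, 189, and 174 at 14 DPI, and 329, 188, and 218 at 42 DPI. That of miR-3960 was 451, 227, and 291 in sham, 430.4, 476, and 1066 at 3 DPI, 673, 529, and 528 at 14 DPI, and 998, 558, and 659.7 at 42 DPI. For both, 3 DPI replicate 3 stood above the other 3 DPI arrays by more than 2-fold, and sham replicate 1 and 42 DPI replicate 1 were the highest of their groups. Both entries at 42 DPI lay above every sham array. Over the 12 arrays their log2 unscaled signals correlated at r = 0.95, and their deviations from the group means at r = 0.95, given as a description since the arrays share brightness.

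In the unscaled fit both rose by 42 DPI, less than the median rise of 1.92 over all tested miRNAs. Of all tested miRNAs 84.2% were called higher, and with the slide as a block neither entry passed. The difference from sham at 42 DPI was 1.62 ± 0.40 for miR-2861, or 3.07-fold, with an adjusted p of 0.00143. It was 1.21 ± 0.41 for miR-3960, or 2.31-fold, with an adjusted p of 0.0131. At 14 DPI miR-2861 was 1.20 ± 0.40 higher (adjusted p = 0.0158), and miR-3960 differed by 0.89 ± 0.41 (adjusted p = 0.0665). Between 14 and 42 DPI neither passed, with differences of 0.42 (interval -0.42 to 1.27) and 0.32 (interval -0.55 to 1.20).

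On the scaled signal the same pair lay lower at 42 DPI. The log2 scaled level of miR-2861 was -1.53, -1.84, and -2.17 in sham, -2.02, -2.39, and -0.80 at 3 DPI, -1.78, -2.64, and -2.68 at 14 DPI, and -3.16, -2.88, and -3.09 at 42 DPI. That of miR-3960 was 0.66, 0.07, and -0.26 in sham, 0.10, -0.38, and 1.24 at 3 DPI, 0.19, -1.15, and -1.08 at 14 DPI, and -1.56, -1.31, and -1.49 at 42 DPI. The 42 DPI arrays lay below all sham arrays in both. Neither difference from sham passed: it was -1.20 ± 0.41 for miR-2861 (unadjusted p = 0.0186, adjusted p = 0.0902) and -1.61 ± 0.49 for miR-3960 (unadjusted p = 0.0102, adjusted p = 0.0634).

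miR-5126 and miR-2137 were the other bright entries of very high G+C share. The unscaled intensity of miR-5126 was 1738, 783, and 993 in sham, 1371, 1037, and 2446 at 3 DPI, 2206, 1540, and 1596 at 14 DPI, and 2756, 1436, and 1911 at 42 DPI. That of miR-2137 was 153, 69.4, and 100 in sham, 137, 121, and 292 at 3 DPI, 219, 199.8, and 186 at 14 DPI, and 328, 187, and 199 at 42 DPI. Again sham replicate 1, 3 DPI replicate 3, and 42 DPI replicate 1 were the highest of their groups. miR-5126 at 42 DPI overlapped sham, because sham replicate 1 was above 42 DPI replicate 2, whereas miR-2137 at 42 DPI did not. miR-5126 was not called at any time on the unscaled signal, with 0.83 ± 0.42 at 42 DPI (interval -0.06 to 1.71, adjusted p = 0.0744). With single arrays left out it passed at 42 DPI without sham replicate 1, 14 DPI replicate 1, or 42 DPI replicate 2. miR-2137 rose by 0.98 ± 0.42 at 14 DPI (adjusted p = 0.0470) and by 1.17 ± 0.42 at 42 DPI (adjusted p = 0.0156). The median rises over all tested miRNAs were larger, at 1.31 and 1.92. The call at 14 DPI was lost when any of 8 arrays was left out (sham replicates 2 and 3, 3 DPI replicate 1, the 3 arrays at 14 DPI, and 42 DPI replicates 2 and 3). It was also lost with the replicate number as a block over all 12 arrays (adjusted p = 0.0507) and with the slide as a block (0.52, adjusted p = 0.719), and over the alternatives that kept all the arrays the adjusted p ran from 0.0300 to 0.719.

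Scaled, miR-5126 was the entry with the lowest difference at 42 DPI. Its log2 scaled level was 2.61, 1.85, and 1.51 in sham, 1.77, 0.74, and 2.44 at 3 DPI, 1.91, 0.39, and 0.52 at 14 DPI, and -0.09, 0.05, and 0.04 at 42 DPI. The spread was 0.56 (SD) in sham and 0.08 at 42 DPI, and the 2 groups did not overlap. The difference from sham was -1.99 ± 0.53, or 3.97-fold lower, with an adjusted p of 0.0426. For miR-2137, with -0.90, -1.65, and -1.80 in sham and -3.16, -2.89, and -3.22 at 42 DPI, it was -1.64 ± 0.48, with an unadjusted p of 0.00824 and an adjusted p of 0.0541. At 14 DPI both overlapped sham, with -1.05 (interval -2.26 to 0.16) for miR-5126 and -0.74 (interval -1.83 to 0.35) for miR-2137.

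At 42 DPI on the scaled signal, 1 of the 6 tested entries was called lower, miR-5126, where 6.79% of all tested miRNAs were called lower. All 42 DPI arrays lay below all sham arrays in 4 of the 6 (miR-2137, miR-2861, miR-3960, and miR-5126), where 22.4% of all tested miRNAs did. The median difference over the 6 entries was -1.40, beside 0.00 over all tested miRNAs. Only 230 of the 486 tested were detected on every array, so signals set at the floor enter that 0.00 and the shares above. With a lower floor the median over all tested was -0.09. Among other miRNAs detected on every array it was -1.14 at a G+C share of 70% or more. From 60% to under 70% it was -1.07, and in the classes below 60% it was above 0. The call on miR-5126 held without 3 DPI replicate 2 or 3 or 14 DPI replicate 1 and was lost without any of the other 9 arrays, over a range of -2.23 to -1.68. Without 3 DPI replicate 3, 4 of the 6 entries were called lower, those with groups that did not overlap. Without 14 DPI replicate 1 there were 3 (miR-2137, miR-3960, and miR-5126), and without 3 DPI replicate 2 there were 2 (miR-2137 and miR-5126). The call on miR-5126 was also lost with the slide as a block, at -1.81 with an adjusted p of 0.466, while within slide 2 the 42 DPI arrays differed from the 3 DPI arrays by -1.59 on the log2 scale, and the adjusted p over the same 14 alternatives ran from 0.00986 to 0.714. Scaling to the spike-in control probes in place of the 75th percentile turned the direction of all 4: the differences at 42 DPI became 0.22 (miR-5126), 0.57 (miR-2137), 0.60 (miR-3960), and 1.02 (miR-2861), none past the threshold, with a median over all tested miRNAs of 1.24.

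Unscaled, 5 of the 6 entries were called higher at 42 DPI, all but miR-5126, where 84.2% of all tested miRNAs were called higher. The count fell to 2 without sham replicate 2 or without 42 DPI replicate 1, and was 3 with the methods' t-test. The same 5 had all 42 DPI arrays above all sham arrays, as did 91.4% of all tested miRNAs. The median difference of the 6 was 1.24, beside 1.92 over all tested. The corresponding medians over all tested miRNAs were 0.65 at 3 DPI and 1.31 at 14 DPI, beside 0.82 and 1.03 for the 6 entries. Signals set at the floor enter the medians over all tested miRNAs here as well. Among other miRNAs detected on every array the 42 DPI medians were 1.33 at a G+C share of 70% or more and 1.40 from 60% to under 70%. In the classes below 60% they were 2.91 to 3.39. No tested miRNA was called lower than sham unscaled at 42 DPI, while on the scaled signal the calls were split into 35 higher and 33 lower. With the slide as a block, only miR-5100 of the 6 was called at 42 DPI unscaled (2.86, adjusted p = 0.0338).

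**Figure D2:**
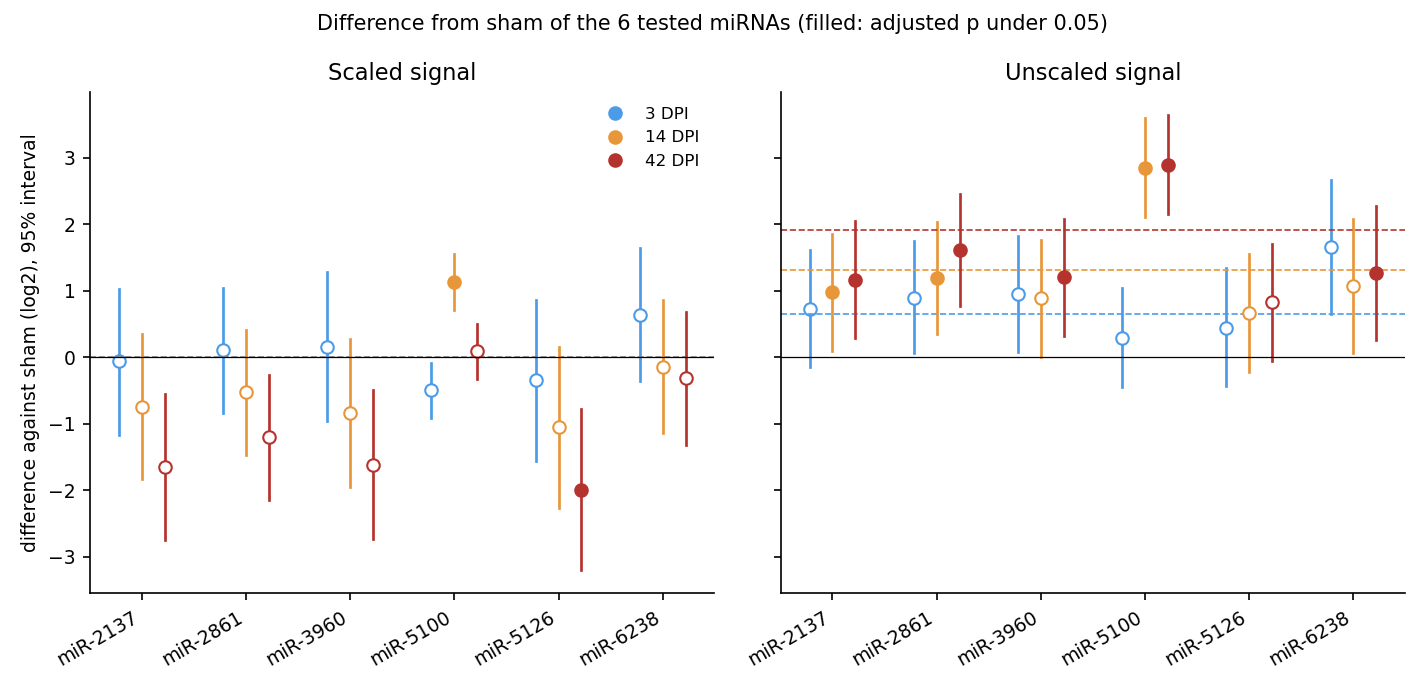
Difference from sham (log2) of the 6 tested miRNAs at 3, 14, and 42 DPI, on the scaled signal (left) and the unscaled signal (right), with 95% intervals from limma over 12 arrays. Filled points passed an adjusted p of 0.05, and dashed lines are medians over the 486 miRNAs tested, 0.00 on the left and 0.65, 1.31, and 1.92 on the right. The points of miR-6238 rest on arrays set at the floor and give no size. Signals set at the floor also enter the dashed lines. miR-2137, miR-2861, miR-3960, and miR-5126 lie below 0 at 42 DPI on the left and above 0 but below the dashed 42 DPI line on the right.

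At 3 DPI none of the 6 entries passed limma's test on either scale, and neither did any other miRNA, so the background was 0% scaled and 0% unscaled. Unscaled, miR-6238 passed without 3 DPI replicate 1 or 14 DPI replicate 1, and no other entry did with a single array left out. At an unadjusted p under 0.05 the scaled fit had 1 of the 6 entries (miR-5100) and 5 of all 486 miRNAs, and the unscaled fit 3 of the 6 (miR-2861, miR-3960, and miR-6238) and 88 of 486. The methods' t-test with Benjamini-Hochberg adjustment called 0 of the 6 on both scales. Scaled differences at 3 DPI were -0.06 for miR-2137, 0.11 for miR-2861, 0.16 for miR-3960, and -0.34 for miR-5126, with intervals that reached at least 0.83 on the side below 0 and at least 0.87 on the side above. Between 14 and 42 DPI limma called none of the 6 on either scale, where the background was 0% scaled and 34.4% unscaled. At an unadjusted p under 0.05 the scaled fit had 1 of the 6 (miR-5100) and 23 of all 486 miRNAs. The unscaled fit had 0 of the 6 and 238 of all 486. The methods' t-test again called 0 of the 6 on either scale.

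There were thus 2 shapes among the 5 entries detected on every array, a grouping made after the values were known and given as a description. Log2 unscaled signals of miR-2137, miR-2861, miR-3960, and miR-5126 correlated with each other at r = 0.86 to 0.97 over the 12 arrays, and their deviations from the group means at r = 0.84 to 0.97. Those of miR-5100 correlated with the 4 at r = 0.50 to 0.72, and its deviations at r = -0.07 to 0.14. Within an array no scaling enters the difference between them. miR-5100 minus the mean of the 4 was 2.27 ± 0.54 (log2, SD, n = 3) in sham, 1.81 ± 0.86 at 3 DPI, 4.19 ± 0.45 at 14 DPI, and 3.96 ± 0.19 at 42 DPI. Single arrays ran from 0.82 to 2.77 in sham and at 3 DPI, and from 3.67 to 4.47 at 14 and 42 DPI, so the earlier and the later groups did not overlap. The lowest value, 0.82, was that of 3 DPI replicate 3.

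**Figure D3:**
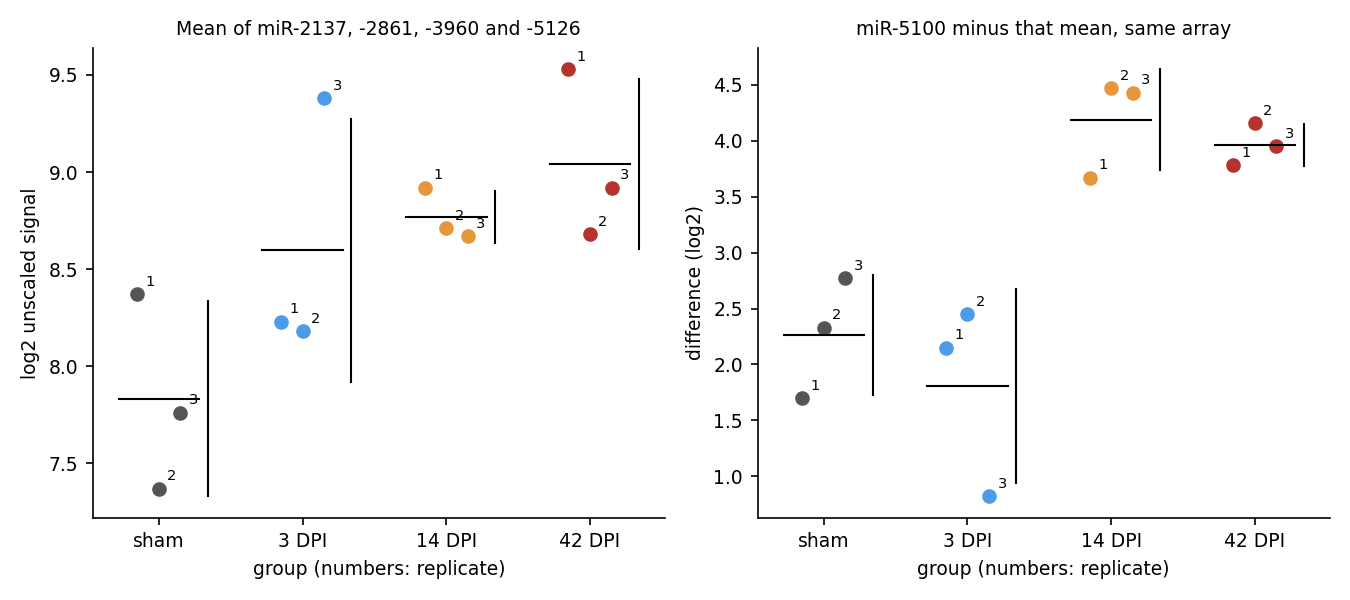
Left, mean log2 unscaled signal of miR-2137, miR-2861, miR-3960, and miR-5126 on each array. Right, miR-5100 minus that mean on the same array (log2). Each point is 1 array with its replicate number, horizontal lines are group means, and vertical bars are ± 1 SD (n = 3). On the left all groups overlap a neighbor, and 3 DPI replicate 3 stands at 9.38. On the right sham and 3 DPI lie between 0.82 and 2.77, and 14 and 42 DPI between 3.67 and 4.47.

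The probes of an entry gave the same picture for most of the bright entries. Each had a pair of probes of 15 spots each, or 30 spots per array in all, of which at least 27 were kept. The ratio of the brighter to the dimmer probe ranged over the 12 arrays from 1.08 to 1.15 for miR-3960, from 1.23 to 1.38 for miR-5126, from 3.83 to 5.09 for miR-2137, and from 6.37 to 7.92 for miR-5100. For miR-2861 it ranged more widely, from 1.08 to 2.13. With the brightest probe in place of the sum, miR-5126 at 42 DPI scaled was -1.84 with an adjusted p of 0.0589.

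miR-6238, the entry with the lowest G+C share, was near background in sham. Its unscaled intensity was 43.3, 13.3, and 11.1 in sham, of which only replicate 1 was above background, 38.9, 74.1, and 141 at 3 DPI, 67.2, 39.7, and 44.4 at 14 DPI, and 72.9, 46.5, and 52.6 at 42 DPI. All 9 injury arrays were above background. Unscaled it was called higher at 42 DPI (adjusted p = 0.0214), with all 3 arrays above all sham arrays. As 2 of the 3 sham arrays were set at the floor of 4.10, the floor enters the size of the difference, which was 1.27 on the log2 scale and 1.45 with a lower floor, and no fold is given. At 3 DPI the unadjusted p was 0.00283 and the adjusted p 0.264, the smallest unadjusted p of the 6 entries in that comparison, and at 14 DPI the adjusted p was 0.0566. Scaled, no difference passed the threshold, and none is given as a size, since 2 of the sham arrays, 2 of the 14 DPI arrays, and all 3 arrays at 42 DPI lay at the floor. The call at 42 DPI was lost without sham replicate 2, sham replicate 3, or 42 DPI replicate 1. With the total signal that the scanner software gives, the unscaled difference turned to -0.93 at 42 DPI (adjusted p = 0.0667), and with the slide as a block to -0.13 (adjusted p = 0.948). The software's total for this miRNA stood above the sum of its own probe totals on 5 arrays, among them all 4 arrays of slide 1.

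The entries at or below background were miR-6240, miR-762, and miR-6239. miR-6240 had 26.1, 13.2, and 13.7 intensity units in sham, 22.3, 18.0, and 32.0 at 3 DPI, 33.1, 10.6, and 13.8 at 14 DPI, and 18.4, 14.3, and 15.4 at 42 DPI, and stood above background only on 3 DPI replicate 3 and 14 DPI replicate 1. Groups overlapped throughout, and no fold or test is given. miR-762, despite 4 probes and a G+C share of 81.8%, ranged from -6.66 to 28.9 over the 12 arrays, all not well above background. miR-6239 ranged from -3.49 to 0.992. A level for miR-762 and miR-6239 was thus not detectable on these arrays, which is not evidence that the RNAs were absent.

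Beyond the 9 entries, a lower scaled level at 42 DPI went with G+C share across miRNAs. Of the 230 miRNAs detected on all arrays 201 had a sequence, and 197 of these were outside the 9 entries. Among those with a G+C share of 70% or more, 15 of 16 were lower than sham at 42 DPI on the scaled signal, with a median difference of -1.14. Among those from 60% to under 70%, 39 of 44 were lower, with a median of -1.07. In the classes from 50% to under 60%, 40% to under 50%, and under 40%, the medians were 0.09, 0.32, and 0.57, with 24 of 51, 13 of 54, and 4 of 32 lower. At 14 DPI the medians from the highest class to the lowest were -0.64, -0.43, 0.06, 0.09, and 0.30, and at 3 DPI they were -0.13, -0.04, -0.04, 0.00, and 0.03.

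Scaling divides each array by 1 number, so away from the floor it shifts every difference by the same amount. The order of the classes therefore had to be nearly the same without scaling and is not a second result. All unscaled medians were above 0. At 42 DPI the unscaled medians were 1.33, 1.40, 2.91, 3.14, and 3.39 from the highest G+C class to the lowest. Over the 197 miRNAs the correlation of G+C share with the difference at 42 DPI was r = -0.53 scaled and r = -0.54 unscaled, at 14 DPI r = -0.41 on both scales, and at 3 DPI r = -0.03 on both. These are correlations across miRNAs that share the same 12 arrays and are not independent, and no test was made of them. Of the bright entries of the same shape, miR-2137, miR-2861, and miR-5126 have G+C shares above 99.6% or more of the other miRNAs, and their scaled differences of -1.64, -1.20, and -1.99 compare with the median of -1.14 in the highest class. miR-5100, with 61.9%, was at 0.09 at 42 DPI and was not lower, as were 5 of the 44 others in its class.

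**Figure D4:**
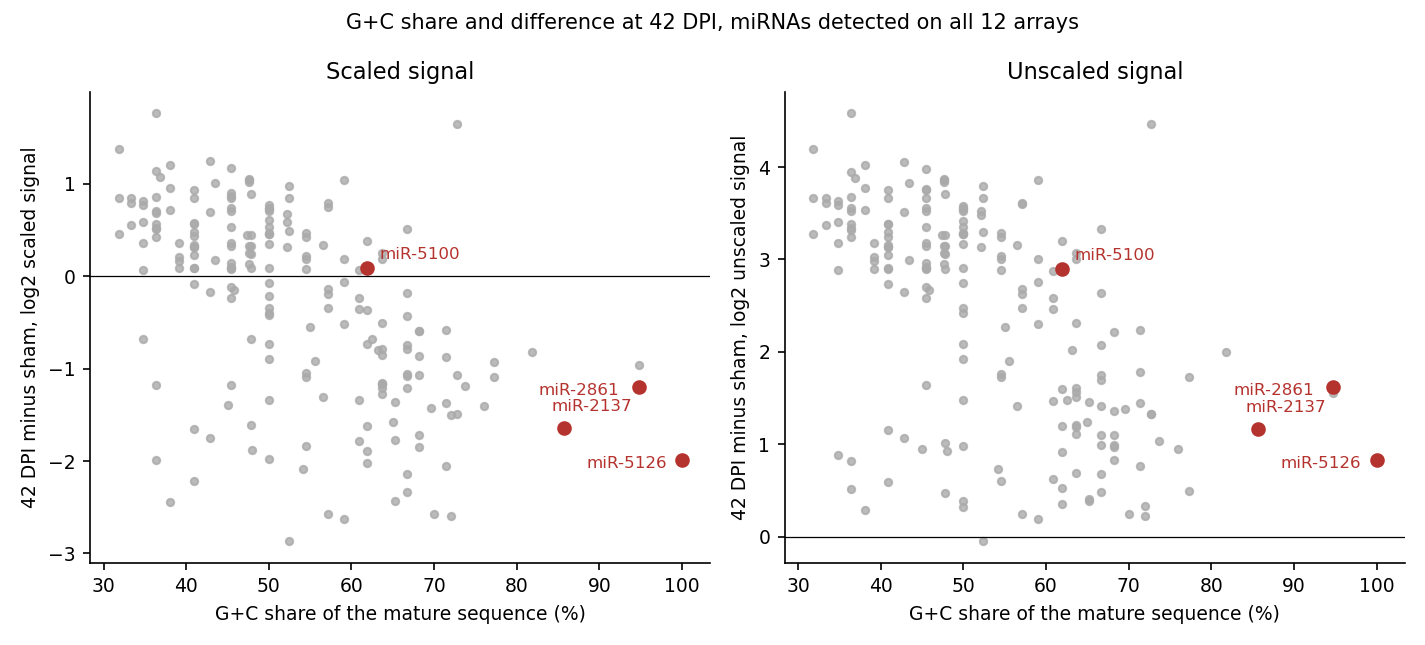
G+C share of the mature sequence (%) against the difference between 42 DPI and sham (log2) for the 201 miRNAs detected on all 12 arrays that had a sequence, scaled (left) and unscaled (right). Each point is 1 miRNA, and the 4 labeled points are entries followed here. On the left, 15 of the 16 gray points at 70% or more lie below 0; on the right, all 16 lie above 0 with a median of 1.33.

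A list of all miRNAs with a G+C share no lower than that of the 9 entries held 1505 names, since miR-6238 sets a low limit, and of the 392 tested, 27 were called higher and 27 lower at 42 DPI on the scaled signal, with a median of 0.00. A limit at the entries' median share of 75.5% left 30 names, of which 12 could be tested. Of these, 0 were called higher and 1 lower at 42 DPI scaled (median -0.13), and 8 of 12 were called higher unscaled (median 1.14, beside 1.92 over all tested). The shares over all tested miRNAs were 6.79% called lower scaled and 84.2% called higher unscaled. The brightest names of the first list were miR-494-3p, miR-3963, and let-7c-5p, with scaled differences at 42 DPI of -1.18 for the first, 0.45 for the second, and 0.31 for the last, none past the threshold (adjusted p between 0.193 and 0.537). miR-3963 was called at 14 DPI on the scaled signal, at 1.29 ± 0.21 (adjusted p = 0.0393), as miR-5100 was.

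Other entries numbered near miR-5100, miR-5126, and miR-6238 to miR-6240 in the catalogue were counted in the same way. Of 40 such names on the arrays 13 could be tested. At 42 DPI, 1 was called lower on the scaled signal, miR-5119 at -0.80 ± 0.15 (adjusted p = 0.0292), and 10 were called higher unscaled. The shares over all tested miRNAs were 6.79% called lower scaled and 84.2% called higher unscaled. The brightest of them, miR-5128, differed by -1.34 ± 0.62 scaled (adjusted p = 0.188) and rose by 1.47 ± 0.49 unscaled (adjusted p = 0.0109). miR-5112 differed by -1.56 ± 0.63 scaled (adjusted p = 0.128) and rose by 1.24 ± 0.46 unscaled (adjusted p = 0.0191).

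The let-7 family, repressors of growth and stem-cell genes and bright in brain, served as a contrast of lower G+C share. Against sham, limma called none of its 8 members on the scaled signal at 3, 14, or 42 DPI, and at an unadjusted p under 0.05 it had 0, 0, and 2 of them. All 42 DPI arrays nevertheless lay above all sham arrays on the scaled signal in 7 of the 8, as in 116 of the 486 tested miRNAs. The methods' t-test called 0, 0, and 4 of them. Unscaled, limma called all 8 higher at both 14 and 42 DPI, where it called 66.0% and 84.2% of all tested miRNAs higher. The methods' t-test called 0 and 8, and the median differences at 42 DPI were 0.52 scaled and 3.34 unscaled. let-7c-5p, the brightest, rose by 3.13 ± 0.50 unscaled at 42 DPI (adjusted p = 2.7e-05), beside 2.90 for miR-5100 and 0.83 for miR-5126 on the same scale.

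The miRNAs whose pattern over the 12 arrays was most like the mean of the 9 entries were found by Pearson correlation among 225 candidates detected on all arrays. On the scaled signal these were miR-671-5p (r = 0.99), miR-6984-5p (r = 0.99), and miR-6392-3p (r = 0.98), whose differences at 42 DPI were -1.43, -1.34, and -1.36. Unscaled they were miR-6984-5p, miR-1894-3p, and miR-6392-3p, each at r = 0.99, with differences of 1.48, 1.51, and 1.46. Their G+C shares were 69.6% for miR-671-5p, 50.0% for miR-6984-5p, 65.2% for miR-6392-3p, and 63.6% for miR-1894-3p.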

How the data were processed

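Per the labels and the study's methods, RNA of CD11b-enriched exosomes was labeled with Cy3 and hybridized to Agilent mouse miRNA arrays, which were read by Agilent Feature Extraction (10.7.1.1). The authors deposited scanner files with a linear, background-subtracted intensity per spot, not normalized between arrays, and a table of log2 values with a median of -3.32 in every column, whose scaling and centering are not stated. The table was used as an alternative. Array number and brightness limit the precision.

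Control and outlier spots were left out, kept spots were averaged per probe, and probes were summed per miRNA. Scaled signals were divided by the array's own 75th percentile, taken over 230 miRNAs that every array detected. Signals were floored at the highest of the arrays' lowest detected signals (log2 of -3.66 scaled and 4.10 unscaled) and tested with limma 3.58.1 in R 4.3.3 over all 12 arrays, which share one estimate of the spread, for 486 miRNAs with Benjamini-Hochberg adjustment at 0.05. The fit was tested on simulated data. Groups came from the labels. Sequences are RefSeq's (GRCm38.p6).

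The entries, lists, and tests were chosen with earlier results of these data known. Named outside the 9 entries were the 3 miRNAs most correlated with their mean on each scale and, per list, up to 3 brightest of those detected on all arrays. Deviations from the group means correlated between same-numbered sham and 14 DPI arrays at 0.84, 0.44, and 0.78 over the 486 miRNAs. They did not in each pair of the other comparisons (-0.70 to 0.54). The labels name no shared animal, and no main fit was paired. The block for replicate number was run as an alternative in every comparison. Alternatives were the software's total signal, the brightest probe, other scalings, floors, and background correction, another detection limit, blocks for replicate number and slide, fits of only the groups compared, the deposited table, leaving out single arrays, and the methods' t-test.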

Additional observations from a re-analysis of the deposited data

Results flagged for a closer look

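In the deposited table of log2 values, miR-6240 stood apart at 3 DPI, which does not appear in the scanner intensities. Its deposited values were 3.09, 2.77, and 2.44 at 3 DPI, against -2.07, -2.08, and -2.07 in sham and -2.05 to -2.93 at 14 and 42 DPI, a difference between 3 DPI and sham of 4.84. The lowest 3 DPI value exceeded the highest value of the other 9 arrays by 4.48, the widest such gap of the 1881 miRNAs, and the next was 2.77 (miR-3093-3p). In the scanner files the same miRNA had 22.3, 18.0, and 32.0 intensity units at 3 DPI and 26.1, 13.2, and 13.7 in sham, with groups that overlapped and 1 of these 6 arrays above background. How the deposited values arose was not tested.

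The total signal that the scanner software gives per miRNA exceeded the sum of its own probe totals, by more than 2%, for miR-6238 on 5 arrays and for miR-6240 on 1. For miR-6238 the total and the sum were 28.1 and 9.18, 23.6 and 2.83, and 37.5 and 2.42 on sham replicates 1 to 3, and 47.2 and 8.24 on 3 DPI replicate 1. On 14 DPI replicate 3 the total was 1.63 times the sum. For miR-6240 they were 22.7 and 5.03 on 42 DPI replicate 1, where 0% of its spots stood above background. Over all miRNAs this was so in 1429 of the 5913 pairs of miRNA and array whose total lay above the software's lowest value, for 365 miRNAs.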

How the results depend on the processing

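Of 576 recomputed differences of the 6 tested entries, single arrays left out apart, 497 kept direction and side of the threshold, 25 lost and 25 gained a call, and 29 turned direction. The lower floor and the replicate block within the groups compared were chosen after seeing the data. Scaled, the entries called at 14 DPI against sham (1) became 2 with the software's total signal, 1 higher and 1 lower. They became 0 with the wider detection limit, only the groups compared, the replicate block in either fit, the slide block, or the methods' t-test. At 42 DPI (1) they became 4 with the total signal, the lower floor, only the groups compared, or the methods' t-test. Of all 486 tested miRNAs, 82, 104, 66, and 66 were called lower in these settings, beside 33 in the main fit. The entries called became 3 with the deposited table and 2 with the percentile over all miRNAs or normexp. They became 0 with the brightest probe, the wider detection limit, the replicate block in either fit, or the slide block. All these entries were called lower, apart from 1 of the 2 with the percentile over all miRNAs. Spike-in scaling also gave 1 entry called, but higher than sham. Unscaled, those at 14 DPI (3) became 5 with the replicate block within the groups, 4 with the total signal, the lower floor, or only the groups compared, 2 with the brightest probe, normexp, the wider detection limit, the replicate block, or the methods' t-test, and 0 with the slide block. Those at 42 DPI (5) became 6 with the replicate block within the groups, 4 with normexp, 3 with the methods' t-test, and 1 with the slide block, and stayed at 5 with the others. Without adjustment the methods' t-test had 4 entries at 42 DPI on the scaled signal at either threshold the methods name. With single arrays left out the counts ran from 0 to 1 and from 0 to 4 (scaled, 14 and 42 DPI), from 0 to 1, from 1 to 5, and from 2 to 6 (unscaled, 3, 14, and 42 DPI).

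Spike-in scaling turned, at 3 DPI, miR-2137 (0.34) and miR-5126 (0.07). At 14 DPI it turned miR-2137 (0.40), miR-2861 (0.62), miR-3960 (0.31), miR-5126 (0.09), and miR-6238 (0.43), and at 42 DPI miR-2137 (0.57), miR-2861 (1.02), miR-3960 (0.60), miR-5126 (0.22), and miR-6238 (0.60). From 14 to 42 DPI it turned miR-2137 (0.17), miR-2861 (0.40), miR-3960 (0.30), miR-5100 (0.02), miR-5126 (0.14), and miR-6238 (0.17). The total signal turned miR-2137 (0.09) and miR-6238 (-0.70) at 3 DPI scaled, and miR-6238 unscaled at 14 DPI (-0.89), 42 DPI (-0.93), and from 14 to 42 DPI (-0.04). The slide block turned miR-2861 (-0.17), miR-3960 (-0.06), and miR-6238 (-0.02) at 3 DPI scaled, and miR-6238 unscaled at 14 DPI (-0.32) and 42 DPI (-0.13), and normexp turned miR-2861 at 3 DPI scaled (-0.04). The cause was not tested. With single arrays left out, scaled values crossed 0 at 3 DPI for miR-2137 (-0.51 to 0.36), miR-2861 (-0.36 to 0.44), miR-3960 (-0.30 to 0.51), and miR-5126 (-0.73 to 0.11), at 14 DPI for miR-6238 (-0.31 to 0.18), and at 42 DPI for miR-5100 (-0.08 to 0.22), as did unscaled values from 14 to 42 DPI for miR-5100 (-0.13 to 0.16), miR-2137 (-0.06 to 0.34), and miR-5126 (-0.09 to 0.39).

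Over all tested miRNAs the scaled calls at 3, 14, and 42 DPI were 0, 6, and 68. They were 0, 0, and 0 with the slide block, 0, 151, and 278 with spike-in scaling, and 95, 143, and 249 with the deposited table, and with the other alternatives that kept all arrays between 0 and 31, 0 and 65, and 2 and 174. With single arrays left out they were 0 at 3 DPI, 0 to 82 at 14 DPI (82 without 14 DPI replicate 1), and 0 to 133 at 42 DPI (133 without 14 DPI replicate 1, and 0 without sham replicate 2, 3 DPI replicate 1, or any array at 42 DPI). The unscaled calls, 0, 321, and 409, became 0, 0, and 189 with the slide block and 61 at 14 DPI with the methods' t-test. Between 14 and 42 DPI the scaled calls, 0, became 16 with the deposited table and 206 with spike-in scaling, and the 167 unscaled calls fell to 1 or 0 in the alternatives that kept all arrays, other than the lower floor (170). With single arrays left out they were 174 without 3 DPI replicate 2, 201 and 214 without 14 DPI replicates 2 and 3, 236 without 42 DPI replicate 2, and 1 without any of the other 8 arrays. Signal over background limited miR-762, miR-6239, and miR-6240, and miR-6238 in sham.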
